A study of Mus musculus with 4 samples.

Results

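The genes described here encode the invariant chains of the T cell receptor complex (*Cd3d*, *Cd3e*, *Cd3g* and *Cd247*), the T cell surface protein *Thy1*, and markers of T cell subsets (*Cd4*, *Cd8a*, *Foxp3* and *Tbx21*). They were chosen by name, and all 9 were found among the 24346 gene symbols of the RNA sequence analysis. Dorsal skin was compared between C57BL/6 mice on the NASH diet, which is rich in fat and cholesterol and induces steatohepatitis (Cont-IMQ group), and mice fed the NASH diet to which 7-ketocholesterol, an oxidized form of cholesterol, was added (7KC-IMQ group). The mice were males that began the diet at the age of 8 weeks. All of the mice received their diet for 3 weeks and imiquimod cream (IMQ), a Toll-like receptor agonist that induces psoriasis-like dermatitis in mice, for 1 day. Both groups therefore carried the steatohepatitis-inducing diet and IMQ, and skin without IMQ or from mice on normal chow is not part of the comparison. Each group had 2 libraries, whose values are given in the order of replicates 1 and 2, and the labels do not say which animals they came from, so the p-values measure the spread between these samples only.

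A T cell receptor consists of a pair of antigen-binding chains held at the cell surface together with CD3 gamma, delta and epsilon and a zeta homodimer. The antigen-binding chains have almost no cytoplasmic part, and the signal is carried by tyrosine motifs in the CD3 and zeta chains, which LCK phosphorylates and ZAP70 binds. CD4 and CD8 are the coreceptors of helper and cytotoxic T cells, and FOXP3 and T-bet (*Tbx21*) are the transcription factors of regulatory T cells and Th1 cells. In mouse skin, many T cells carry a gamma-delta receptor and neither CD4 nor CD8, including the dendritic epidermal T cells and the dermal gamma-delta T cells that produce IL-17 in IMQ-induced dermatitis.

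Levels were given as FPKM, the number of fragments scaled to the length of the gene and to the depth of the library. Depth was estimated from the steps in the low values at between 14980000 and 16230000 reads per library. The depth kept was the one that put the most low genes with a single transcript within 0.1 of whole reads. That share was 75.9% to 78.6%, where 20% would be met by chance at a fixed depth. Since depth was chosen on this share, it is no separate check. The 4 libraries held keratinocyte markers at high levels, with *Krt14* between 4132 and 5700 FPKM and *Krt5* between 2544 and 3062 FPKM. The Cont-IMQ libraries differed widely in the hair follicle genes, with *Krt25* at 31.6 FPKM in replicate 1 and 442 FPKM in replicate 2. The 7KC-IMQ libraries lay between them, at 134 and 122 FPKM. Log2 fold changes without each Cont-IMQ library are given beside each of the T cell receptor complex and subset genes tested. Since the RNA came from whole skin, fewer cells of a type and less RNA per cell cannot be told apart.

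Lower levels of *Cd3e* and *Cd3g* and a higher level of *Thy1* were measured in the 7KC-IMQ group, while *Cd3d* was nearly the same in both groups. The mean FPKM in 7KC-IMQ skin was 0.669 times that in the Cont-IMQ group for *Cd3g*, 0.711 times for *Cd3e*, 0.762 times for *Cd247*, 1.04 times for *Cd3d* and 1.35 times for *Thy1*. The subset genes *Cd4*, *Foxp3* and *Tbx21* overlapped between the groups, and *Cd8a* was counted at a handful of reads. None of these genes passed the test across all genes (limma on log2(FPKM + 1), Benjamini-Hochberg adjusted p under 0.05 over the 15896 genes whose average was 0.1 FPKM or more), and only 1 gene of any kind passed it, which was lower in the 7KC-IMQ group (0.00629% of genes tested).

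Of the 9 genes, 8 passed the filter on low values, and *Cd8a* did not. Before adjustment, the limma p was under 0.05 for *Cd3e* and *Cd3g* in the lower direction, where 5.47% of all genes tested were found, and for *Thy1* in the higher direction, where 7.50% were found (13.0% in either direction). Among the 8, 3 were lower in the 7KC-IMQ group without overlap between the groups (*Cd3e*, *Cd3g* and *Cd247*) and 2 were higher (*Cd3d* and *Thy1*), and over all genes tested 22.9% were lower and 23.9% were higher in this way. The median log2 fold change of the 8 genes was -0.09, and that of all genes tested was -0.01.

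**Figure D1:**
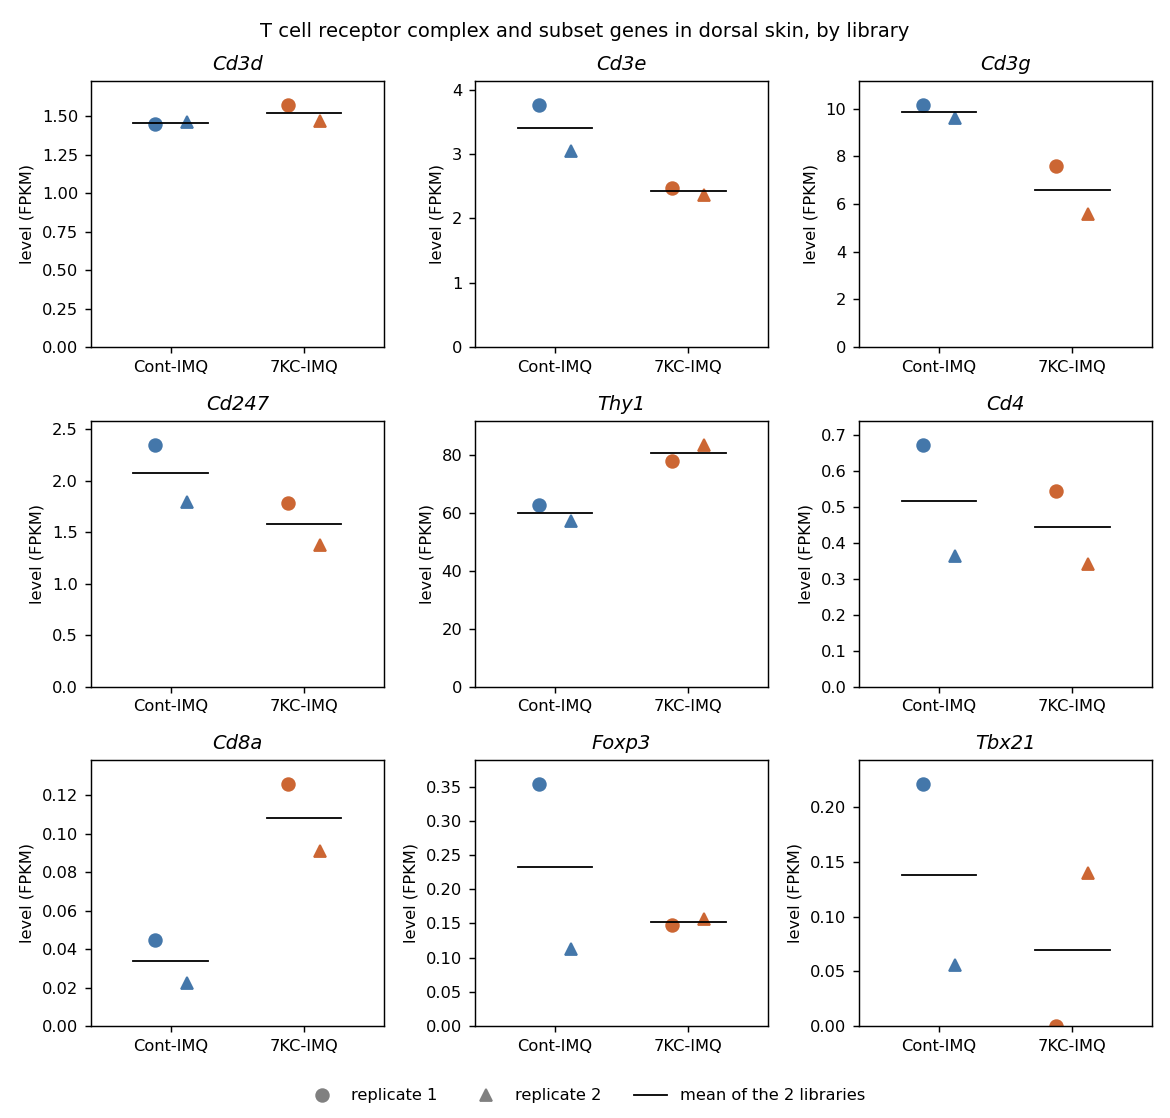
Level (FPKM) of each of the 9 genes in the 4 libraries, with each axis starting at 0; points are libraries (circle, replicate 1; triangle, replicate 2) and lines are the means of 2. *Cd3e*, *Cd3g* and *Cd247* lay lower in both 7KC-IMQ libraries than in either Cont-IMQ library, *Thy1* lay higher, and *Cd4*, *Foxp3* and *Tbx21* overlapped.

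The genes of the 3 CD3 chains lie side by side on chromosome 9. In GRCm38, the assembly also called mm10, *Cd3g* (ENSMUSG00000002033.14, chromosome 9 from 44969572 to 44980431, reverse strand) and *Cd3d* (ENSMUSG00000032094.8, chromosome 9 from 44981786 to 44987339, forward strand) are transcribed away from each other from starts separated by 1354 bases. *Cd3e* (ENSMUSG00000032093.7, chromosome 9 from 44998740 to 45009627, reverse strand) lies 11400 bases beyond the end of *Cd3d* and points toward it. *Thy1* (ENSMUSG00000032011.5, chromosome 9 from 44043384 to 44048579, forward strand) is on the same chromosome, and its end lies 920992 bases from *Cd3g*.

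The 250 bases upstream of the starts of the 3 CD3 genes are shown because these neighbours serve the same complex and had log2 fold changes of -0.53 (*Cd3g*), 0.04 (*Cd3d*) and -0.36 (*Cd3e*), whose counting intervals, given with each gene, overlap. They were taken from RefSeq (GRCm38.p6), in which promoters of 7 of the 9 genes were matched. Distances to a start are counted from the RefSeq start. Of the 3 CD3 genes, only *Cd3e* has its RefSeq start inside the gene as placed above, so its window overlaps the first bases of that gene. Capitals mark matches, on either strand, to 5 motifs of 6 bases bound by T cell transcription factors. The letters searched were TGTGGT for RUNX factors (present in 14.0% of 32851 promoters of the same length), AGGAAG for ETS factors (29.5%), CAGGTG for E proteins (17.2%), AGATAA for GATA factors (9.99%) and CTTTGA for TCF and LEF factors (13.8%). The window of *Cd3g* is chr9:44980432-44980681 (reverse strand), that of *Cd3d* is chr9:44981536-44981785 (forward strand) and that of *Cd3e* is chr9:45009612-45009861 (reverse strand), and each reads 5′ to 3′ toward the gene.

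Cd3g: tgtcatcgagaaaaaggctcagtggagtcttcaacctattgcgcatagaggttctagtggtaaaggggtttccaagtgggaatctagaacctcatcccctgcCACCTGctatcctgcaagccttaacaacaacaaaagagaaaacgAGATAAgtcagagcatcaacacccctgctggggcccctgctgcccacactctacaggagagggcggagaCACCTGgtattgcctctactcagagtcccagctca

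Cd3d: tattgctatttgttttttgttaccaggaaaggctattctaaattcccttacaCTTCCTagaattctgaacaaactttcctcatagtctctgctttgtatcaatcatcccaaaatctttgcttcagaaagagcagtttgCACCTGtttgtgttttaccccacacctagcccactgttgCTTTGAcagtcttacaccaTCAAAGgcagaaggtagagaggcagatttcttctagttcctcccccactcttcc

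Cd3e: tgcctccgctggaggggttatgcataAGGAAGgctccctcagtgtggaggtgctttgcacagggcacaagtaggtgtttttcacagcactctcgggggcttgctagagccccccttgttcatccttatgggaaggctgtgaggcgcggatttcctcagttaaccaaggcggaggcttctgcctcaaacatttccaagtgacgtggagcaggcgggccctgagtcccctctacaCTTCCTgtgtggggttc

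In *Cd3g*, E protein letters stood 148 and 35 bases and GATA letters 104 bases before the start. In *Cd3d*, ETS letters stood at 198 bases, E protein letters at 112 bases and TCF and LEF letters at 73 and 54 bases before the start. In *Cd3e*, ETS letters stood at 224 and 17 bases before the start, and no RUNX letters were found in any of these windows. No pair of the matches overlapped, and a match to these letters is a description of the sequence rather than a binding site. Of the other genes with a matched promoter, *Cd247* and *Tbx21* each held one ETS and one E protein match, *Foxp3* held one ETS and one GATA match in one of its windows and none in the other, and no match was found in *Cd8a*.

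*Cd3g* encodes the gamma chain of CD3, which pairs with epsilon, and it had the highest level of the CD3 genes in every library. Its level was 10.2 and 9.61 FPKM in Cont-IMQ skin and 7.62 and 5.59 FPKM in 7KC-IMQ skin, from an estimated 127, 119, 102 and 69 reads. Both 7KC-IMQ libraries were lower than both Cont-IMQ libraries, and the 7KC-IMQ libraries differed from each other by more than the Cont-IMQ libraries did. The means were 9.88 ± 0.383 FPKM and 6.61 ± 1.43 FPKM (SD, n = 2 each), giving a log2 fold change of -0.53 (standard error 0.16, limma, adjusted p = 0.356). The log2 fold change was -0.34 without 7KC-IMQ replicate 2, -0.49 without Cont-IMQ replicate 1 and -0.56 without Cont-IMQ replicate 2. The ratio of the summed reads, 171 against 246 and corrected for depth, was 0.673, with an exact conditional 95% interval of 0.551 to 0.822 that covers counting error only.

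*Cd3e* encodes the epsilon chain, which is present in both CD3 dimers of the complex and is the chain recognized by common anti-CD3 antibodies. Its level was 3.76 and 3.05 FPKM in Cont-IMQ skin and 2.47 and 2.36 FPKM in 7KC-IMQ skin, from an estimated 72, 58, 51 and 45 reads. The groups did not overlap, and the 7KC-IMQ libraries lay close together. The means were 3.40 ± 0.502 FPKM and 2.42 ± 0.0788 FPKM (SD, n = 2 each), giving a log2 fold change of -0.36 (standard error 0.13, limma, adjusted p = 0.372). The log2 fold change was -0.24 without Cont-IMQ replicate 1 and -0.48 without Cont-IMQ replicate 2, and the read ratio was 0.715 (95% counting interval, 0.544 to 0.938). An antisense gene, *Gm48719*, overlaps an exon of *Cd3e*, and whether strand was used in the authors' counting is not stated.

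*Cd3d* encodes the delta chain, the other partner of epsilon. Its level was 1.45 and 1.46 FPKM in Cont-IMQ skin and 1.57 and 1.47 FPKM in 7KC-IMQ skin, from an estimated 31, 31, 36 and 31 reads. The lowest 7KC-IMQ library exceeded the highest Cont-IMQ library by less than the worth of 1 read. The means were 1.46 ± 0.0105 FPKM and 1.52 ± 0.0717 FPKM (SD, n = 2 each), giving a log2 fold change of 0.04 (standard error 0.10, limma, adjusted p = 0.909). This value was 0.03 without Cont-IMQ replicate 1, was 0.04 without Cont-IMQ replicate 2 and turned to -0.01 when every library was scaled to the same sum of FPKM. The read ratio was 1.05, and its 95% counting interval of 0.730 to 1.50 includes no difference and overlaps the intervals of *Cd3e* and *Cd3g*.

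*Cd247* (ENSMUSG00000005763.15, chromosome 1 from 165788681 to 165877277, forward strand) encodes the zeta chain, which is also used by the activating receptors of NK cells. Its level was 2.35 and 1.80 FPKM in Cont-IMQ skin and 1.78 and 1.38 FPKM in 7KC-IMQ skin. The groups were separated narrowly, since Cont-IMQ replicate 2 and 7KC-IMQ replicate 1 were nearly equal. The means were 2.07 ± 0.390 FPKM and 1.58 ± 0.284 FPKM (SD, n = 2 each), giving a log2 fold change of -0.25 (standard error 0.15, limma, adjusted p = 0.544), which is within 2 standard errors of 0. Without Cont-IMQ replicate 1 the log2 fold change was -0.12, and without Cont-IMQ replicate 2 it was -0.38. An exon of *Cd247* overlaps *Pou2f1* on the opposite strand, and 2.42% of the 75-base windows of its transcripts also occur in *Gm16565*. Of the 8 NK cell markers, 6 were tested, of which 1 was higher and none was lower without overlap. Over all genes tested, 23.9% were higher and 22.9% were lower in this way. The higher gene was *Ncr1*, with 0.0518 and 0.157 FPKM against 0.194 and 0.315 FPKM, from an estimated 1, 3, 4 and 6 reads. The summed level of the NK cell markers was 13.1 and 10.4 FPKM in Cont-IMQ skin and 12.2 and 13.0 FPKM in 7KC-IMQ skin, and their part in the values of *Cd247* was not tested.

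The CD3 genes were also set against each other within a library. In ratios chosen after the values were seen, *Cd3g* was 7.01 and 6.57 times *Cd3d* in the Cont-IMQ libraries and 4.85 and 3.81 times *Cd3d* in the 7KC-IMQ libraries. The ratio of *Cd3e* to *Cd3d* was 2.59 and 2.08 in the Cont-IMQ group and 1.58 and 1.61 in the 7KC-IMQ group. The ratio of *Cd3g* to *Cd3e* overlapped between the groups (2.70 and 3.15 against 3.08 and 2.37). Exact two-sided permutation of 4 libraries can reach no p lower than 0.333, the value found for both ratios to *Cd3d*, so a difference in proportions could not be established, and *Cd3d* rests on 31 to 36 reads per library.

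Among the genes within 100000 bases of the CD3 genes, a range also chosen after the values were seen, none other than *Cd3g* and *Cd3e* had a limma p under 0.05 before adjustment. On the far side of *Cd3g*, *Kmt2a* had a log2 fold change of -0.28 (limma, adjusted p = 0.444) and *Ube4a* of -0.14 (limma, adjusted p = 0.529), and *Atp5l*, which lies between them, had a log2 fold change of 0.13 (limma, adjusted p = 0.577). Beyond *Cd3e*, *Mpzl2*, an epithelial adhesion gene, had a log2 fold change of 0.22 (limma, adjusted p = 0.444) and *Mpzl3* of 0.14 (limma, adjusted p = 0.585).

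*Thy1* encodes CD90, a GPI-anchored surface protein that marks all T cells in the mouse and is also present on fibroblasts and neurons. It had by far the highest level of the 9 genes, with 62.6 and 57.1 FPKM in Cont-IMQ skin and 78.0 and 83.5 FPKM in 7KC-IMQ skin. The groups were well separated, and the gap between them was larger than the distance between the libraries of either group. The means were 59.8 ± 3.92 FPKM and 80.7 ± 3.87 FPKM (SD, n = 2 each), giving a log2 fold change of 0.43 (standard error 0.08, limma, adjusted p = 0.352). The log2 fold change lay between 0.36 and 0.49 when any 1 library was left out. It was 0.49 without Cont-IMQ replicate 1 and 0.36 without Cont-IMQ replicate 2. The estimated reads were 2778 in the Cont-IMQ group and 3866 in the 7KC-IMQ group, with a ratio of 1.35 (95% counting interval, 1.28 to 1.42).

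Markers of the other cells that carry *Thy1* differed in direction between cell types. Of the 6 fibroblast markers, all of them tested, 5 had a log2 fold change above 0 and 1 below 0, with a median of 0.22. Over all genes tested, 7739 were above 0 and 8157 below 0. Without overlap, *Pdgfra* was higher (13.0 and 16.2 FPKM against 17.7 and 19.0 FPKM) and *Dcn* was lower (1157 and 1056 FPKM against 970 and 911 FPKM). The summed level of the 6 fibroblast markers was 3406 and 2446 FPKM in Cont-IMQ skin and 3178 and 2788 FPKM in 7KC-IMQ skin. Of the 4 Schwann cell and nerve markers, all had a log2 fold change below 0, and 2 were lower without overlap, among them *Sox10*. Their summed level was 52.5 and 52.2 FPKM against 49.6 and 44.0 FPKM. The counts of both lists stand against 23.9% higher and 22.9% lower without overlap over all genes tested. The part of these cells in the level of *Thy1* was not tested.

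Divided by the mean of the 3 CD3 genes in the same library, *Thy1* was 12.2 and 12.1 in the Cont-IMQ group and 20.1 and 26.6 in the 7KC-IMQ group. The Cont-IMQ libraries were nearly identical in this ratio, and both 7KC-IMQ libraries lay above them (12.2 ± 0.0749 against 23.3 ± 4.61, SD, n = 2 each, exact permutation p = 0.333, which is the smallest possible). The same ratio of *Cd247* was 0.459 and 0.382 against 0.458 and 0.440, which overlapped between the groups (exact permutation p = 1). Divided by *Cd3g* alone, *Cd247* was 0.232 and 0.187 against 0.234 and 0.247 and did not overlap (exact permutation p = 0.333). Over the 6 genes set against CD3, the Benjamini-Hochberg adjusted exact p was 1 for each.

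**Figure D2:**
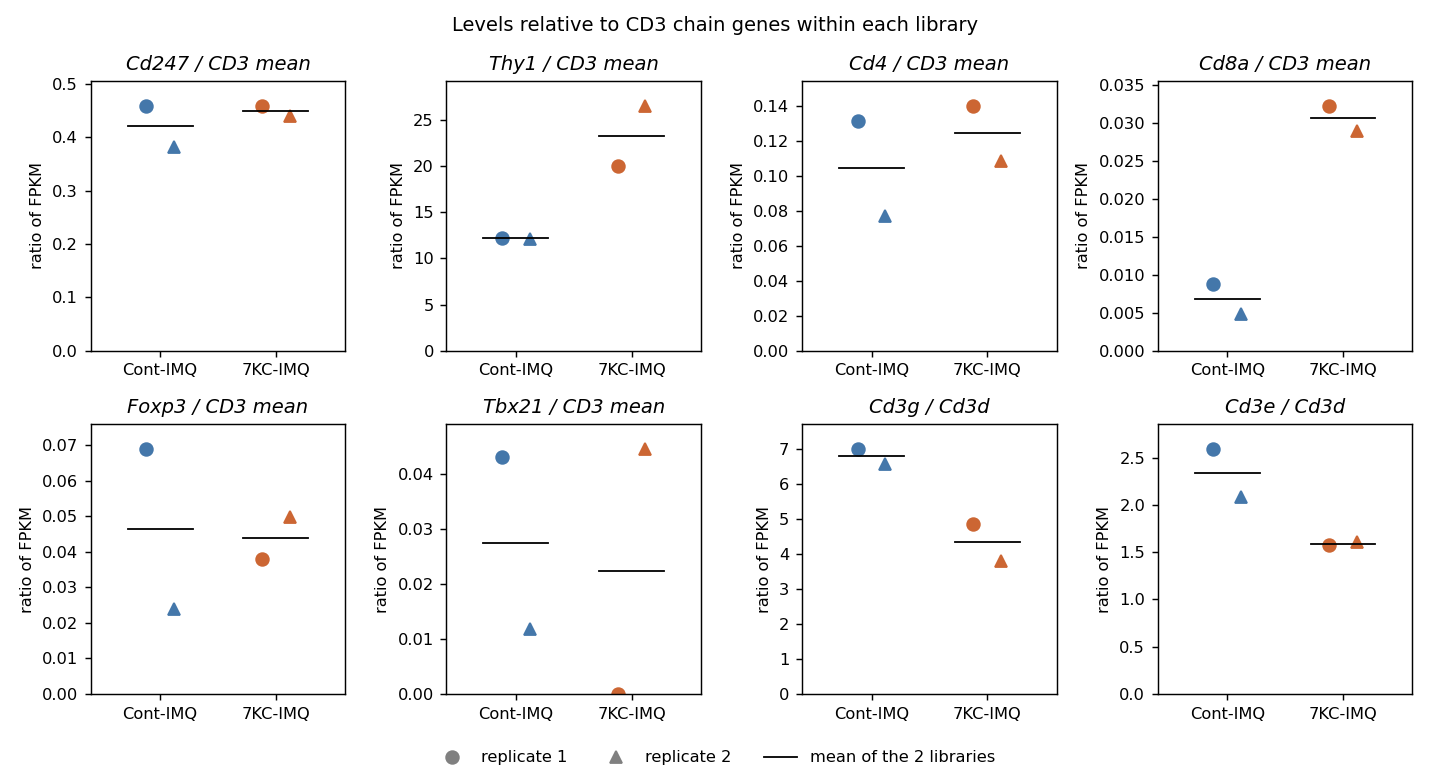
Ratio of FPKM within each library, for 6 genes to the mean of *Cd3d*, *Cd3e* and *Cd3g* and for *Cd3g* and *Cd3e* to *Cd3d*, with each axis starting at 0; points are libraries (circle, replicate 1; triangle, replicate 2) and lines are the means of 2. *Thy1* and *Cd8a* lay higher and the ratios to *Cd3d* lay lower in the 7KC-IMQ group without overlap, and *Cd247*, *Cd4*, *Foxp3* and *Tbx21* overlapped.

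The subset genes stood at far lower levels than the CD3 genes. *Cd4* (ENSMUSG00000023274.14, chromosome 6 from 124864692 to 124888221, reverse strand), the coreceptor of helper T cells, had 0.673 and 0.363 FPKM in Cont-IMQ skin and 0.545 and 0.341 FPKM in 7KC-IMQ skin, from an estimated 30, 16, 26 and 15 reads. The groups overlapped, and in each group replicate 1 was higher than replicate 2, although the numbers were not found to pair the samples. The means were 0.518 ± 0.220 FPKM and 0.443 ± 0.144 FPKM (SD, n = 2 each), giving a log2 fold change of -0.07 (standard error 0.15, limma, adjusted p = 0.882). The log2 fold change was 0.08 without Cont-IMQ replicate 1 and -0.22 without Cont-IMQ replicate 2, and the counting interval of the read ratio, 0.553 to 1.34, spans both directions. Relative to CD3, *Cd4* was 0.132 and 0.0771 in the Cont-IMQ group and 0.140 and 0.109 in the 7KC-IMQ group (exact permutation p = 0.667).

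*Cd8a* (ENSMUSG00000053977.13, chromosome 6 from 71373427 to 71379173, forward strand), the alpha chain of the CD8 coreceptor, had the lowest level in 3 of 4 libraries, and *Tbx21* was lower in 7KC-IMQ replicate 1. It stood at 0.0448 and 0.0226 FPKM in Cont-IMQ skin and at 0.126 and 0.0909 FPKM in 7KC-IMQ skin. These levels correspond to 2, 1, 6 and 4 reads, so that both Cont-IMQ libraries lay below the floor of 3 reads. The groups did not overlap, and a mean under 0.1 FPKM over the 4 libraries kept *Cd8a* out of the test. The read ratio of 10 against 3 was 3.23, with a 95% counting interval of 0.831 to 18.3, and a difference was not detectable at this depth. *Cd8b1*, the beta chain of CD8, pointed the other way, with 0.161 and 0.163 FPKM in Cont-IMQ skin and 0 and 0.0545 FPKM in 7KC-IMQ skin, and was not tested either.

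*Foxp3* (ENSMUSG00000039521.13, chromosome X from 7573644 to 7595245, forward strand) had 0.353 and 0.113 FPKM in Cont-IMQ skin and 0.147 and 0.157 FPKM in 7KC-IMQ skin, from an estimated 20, 6, 9 and 9 reads. Both 7KC-IMQ libraries lay between the Cont-IMQ libraries, and the log2 fold change was -0.09 (standard error 0.13, limma, adjusted p = 0.802). It turned to 0.05 without Cont-IMQ replicate 1 and was -0.23 without Cont-IMQ replicate 2. *Foxp3* shares 12.5% of its 75-base windows with *Flicr* and has exons that overlap *Ppp1r3f* and *Ccdc22* on the opposite strand, so its low level is uncertain. *Tbx21* (ENSMUSG00000001444.2, chromosome 11 from 97098071 to 97115331, reverse strand) had 0.221 and 0.0559 FPKM in Cont-IMQ skin, was listed at 0 in 7KC-IMQ replicate 1, and had 0.140 FPKM in 7KC-IMQ replicate 2. The groups overlapped on 8, 2, 0 and 5 estimated reads, and the log2 fold change was -0.09 (standard error 0.13, limma, adjusted p = 0.809). Without Cont-IMQ replicate 1 it was 0.02, and without Cont-IMQ replicate 2 it was -0.19. *Tbx21* averaged under 0.1 FPKM in the 7KC-IMQ group and passed the filter through the Cont-IMQ group.

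In the order of levels, *Thy1* came first, then *Cd3g* and then *Cd3e* in all 4 libraries, followed by *Cd247* and *Cd3d*, then *Cd4*, then *Foxp3*. *Cd247* exceeded *Cd3d* in 3 of 4 libraries, and in the 7KC-IMQ group the libraries of these genes overlapped. *Foxp3* and *Tbx21* overlapped in the Cont-IMQ group, and *Tbx21* and *Cd8a* overlapped in the 7KC-IMQ group. In the other pairs of neighbours, the libraries of a group did not overlap. These levels are per length and rest on the transcript lengths the authors used.

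The other genes of T cell receptor signaling and T cell function were taken from 9 lists, of which 8 had genes that could be tested. Of their 124 genes, 110 were in the files and 97 were tested. Without overlap, 22 were higher and 15 were lower in the 7KC-IMQ group, and at an unadjusted limma p under 0.05, 12 were higher and 3 were lower, with none past the adjusted threshold. Over all genes tested, 23.9% were higher and 22.9% were lower without overlap, and 7.50% were higher and 5.47% were lower at an unadjusted p under 0.05, and the counts of each list below stand against these shares. Of the 97, *Cd27* and *Il22* averaged under 0.1 FPKM in the Cont-IMQ group and passed the filter through the 7KC-IMQ group alone. Over the 95 genes averaging 0.1 FPKM or more in both groups, a limit set after the values were seen, 20 were higher and 15 were lower without overlap, and 10 were higher and 3 were lower at an unadjusted p under 0.05. The median log2 fold change of the 97 was 0.02. Of the 15 symbols of antigen receptor chains, only *Ptcra*, the pre-T cell receptor alpha chain of the thymus, was matched, at no more than 0.123 FPKM, and the alpha, beta, gamma and delta chains themselves are not analysed here.

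The proximal signaling genes were centered on no difference, with a median log2 fold change of -0.02 over 23 genes tested of 27, of which 3 were higher and 4 were lower without overlap. *Lat*, the membrane adaptor that ZAP70 phosphorylates, was higher in the 7KC-IMQ group, with 3.17 and 2.05 FPKM in Cont-IMQ skin and 3.91 and 4.82 FPKM in 7KC-IMQ skin (log2 fold change 0.58, limma, adjusted p = 0.365). *Prkcq*, which encodes protein kinase C theta and is also expressed in muscle, was higher, with 10.1 FPKM in both Cont-IMQ libraries against 11.7 and 14.1 FPKM (log2 fold change 0.32, limma, adjusted p = 0.374). The kinase gene *Fyn* was lower without overlap (13.6 and 13.5 FPKM against 13.0 and 10.8 FPKM, limma, adjusted p = 0.556). The inhibitory kinase gene *Csk* and the phospholipase gene *Plcg1*, which many cell types express, overlapped between the groups.

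Of 15 genes of the Th17 and gamma-delta T17 program, all were tested, 8 were higher and 3 were lower without overlap, and the median log2 fold change was 0.31. Over all genes tested, 23.9% were higher and 22.9% were lower in this way. At an unadjusted limma p under 0.05, 7 were higher and 2 were lower, where 7.50% and 5.47% of all genes tested were found. The higher genes were the cytokine genes *Il17f* (1.34 and 1.02 FPKM against 5.08 and 6.33 FPKM), *Il17a* (0.0675 and 0.341 FPKM against 0.821 and 1.44 FPKM) and *Il22* (0.148 and 0 FPKM against 0.554 and 1.20 FPKM, from an estimated 2, 0, 8 and 16 reads), the receptor genes *Ccr6*, *Il1r1* and *Cd163l1*, and *Blk*, a kinase gene of gamma-delta T17 cells and B cells. *Cd163l1*, a scavenger receptor gene of gamma-delta T17 cells, had 0.898 and 0.584 FPKM in Cont-IMQ skin and 1.29 and 1.42 FPKM in 7KC-IMQ skin (log2 fold change 0.44, limma, adjusted p = 0.362). *Ccr6*, the receptor for the skin chemokine CCL20, had 0.447 and 0.194 FPKM against 1.07 and 0.663 FPKM, and *Blk* had 0.286 and 0.144 FPKM against 0.561 and 0.725 FPKM. Without *Il22*, which passed the filter through the 7KC-IMQ group alone, 6 genes were higher at an unadjusted p under 0.05. These genes were thus higher while *Cd3e* and *Cd3g* were lower in the same libraries, and the difference between them was not tested.

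Of the lower genes of the program, *Rora*, which encodes the nuclear receptor ROR alpha, had 29.7 and 25.2 FPKM in Cont-IMQ skin and 20.2 and 20.4 FPKM in 7KC-IMQ skin (log2 fold change -0.42, limma, adjusted p = 0.356). It was above the level of every CD3 gene in each library, and it is also expressed outside T cells, in skin epithelium among other places. *Maf* was lower without overlap (26.8 and 25.3 FPKM against 21.7 and 24.3 FPKM, limma, adjusted p = 0.496). *Maf* and, of the higher genes, *Il1r1* (13.5 FPKM in both Cont-IMQ libraries against 18.4 and 18.3 FPKM) were likewise above every CD3 gene in each library. How much of the level of *Rora*, *Maf* or *Il1r1* came from T cells was not tested.

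Of 13 costimulatory and inhibitory receptor genes tested, 4 were higher and 3 were lower without overlap, and the median log2 fold change was 0.18. *Cd27*, a costimulatory receptor, had 0 and 0.124 FPKM in Cont-IMQ skin and 0.403 and 0.375 FPKM in 7KC-IMQ skin, from an estimated 0, 3, 9 and 8 reads, and passed the filter through the 7KC-IMQ group alone. *Tnfrsf18*, which encodes GITR, had 38.9 and 40.1 FPKM against 47.2 and 42.4 FPKM (limma, adjusted p = 0.459). Of 11 T cell identity transcription factors, 3 were higher and 3 were lower, and *Tcf7* (6.77 and 7.39 FPKM against 7.61 and 7.09 FPKM), *Bcl11b* and *Gata3* overlapped between the groups. Of 10 regulatory T cell genes tested, 1 was higher without overlap and none was lower, and *Il10*, *Nrp1* and *Lrrc32* overlapped. The higher gene was *Tnfrsf18*, which belongs to both lists and was already counted above.

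Of 8 Th1 and cytotoxic genes tested, 2 were lower without overlap and none was higher, with a median log2 fold change of -0.11. *Ccl5*, a chemokine gene of activated T cells and NK cells, had 16.5 and 15.7 FPKM in Cont-IMQ skin and 12.8 FPKM in both 7KC-IMQ libraries (log2 fold change -0.31, limma, adjusted p = 0.356). *Nkg7* and *Gzmb*, genes of cytotoxic granules, overlapped. Of 5 Th2 genes tested, all overlapped. Of 15 trafficking and survival receptor genes, 4 were higher and none was lower without overlap (23.9% and 22.9% over all genes tested), among them *Il15ra* (22.6 and 17.5 FPKM against 27.4 and 27.2 FPKM, limma, adjusted p = 0.364) and *Cxcr6* (0.886 and 0.622 FPKM against 1.15 and 1.68 FPKM, limma, adjusted p = 0.372). *Il2rg*, the common gamma chain of cytokine receptors, and *Selplg* overlapped.

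**Figure D3:**
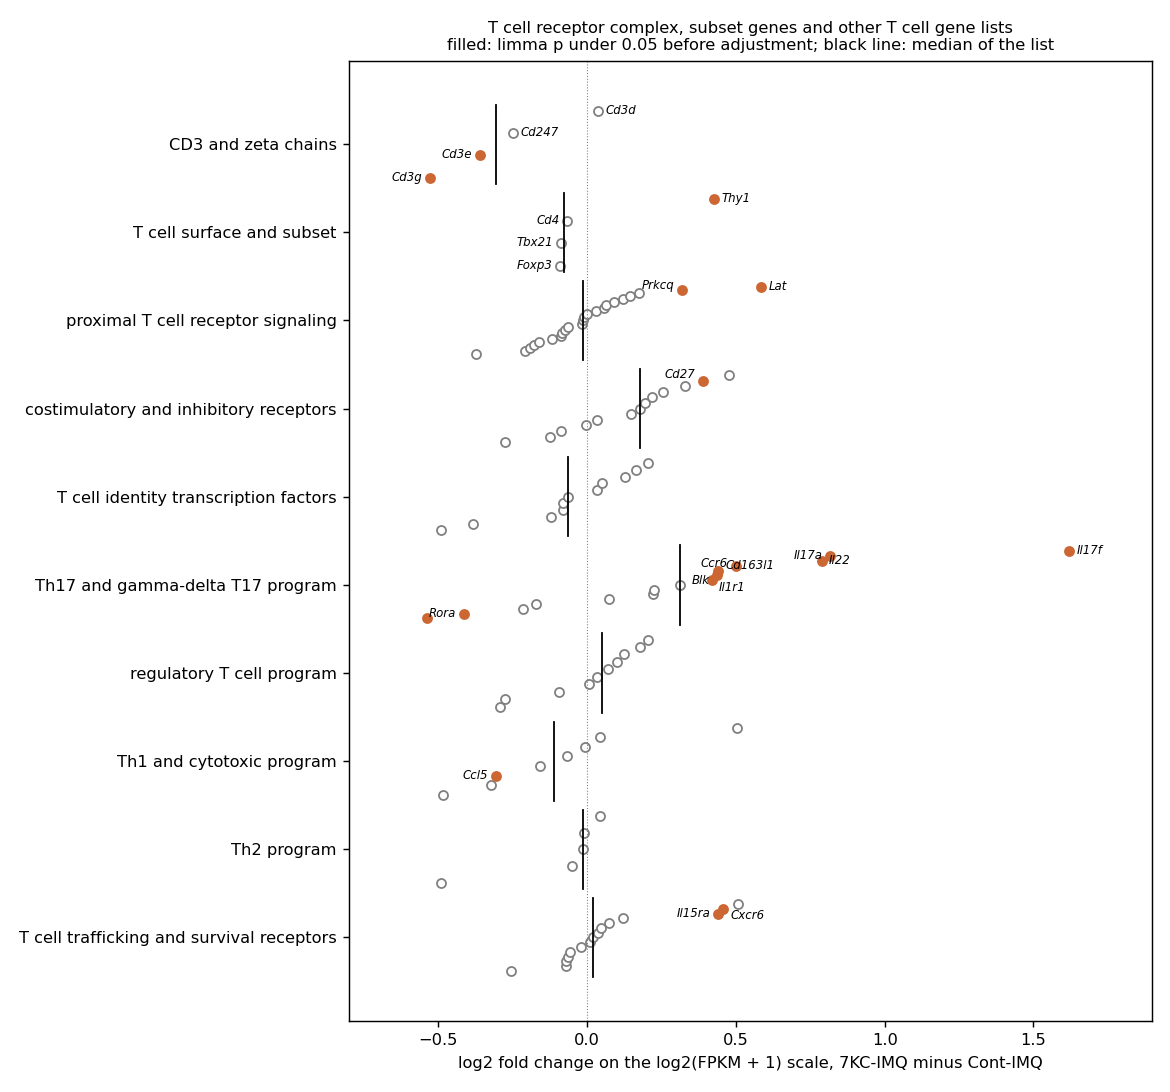
Log2 fold change (7KC-IMQ minus Cont-IMQ, on the log2(FPKM + 1) scale) of each gene tested, in rows by list; filled points have a limma p under 0.05 before adjustment, and black lines are the medians of the lists. *Cd3g* and *Cd3e* lie to the left at -0.53 and -0.36, *Thy1* lies to the right at 0.43, and the Th17 and gamma-delta T17 list holds points on both sides, among them *Rora* at -0.42 and *Il17f* at 1.62.

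Of the 10 gamma-delta T cell markers, 3 were in the files (*Sox13*, *Cd163l1* and *Blk*), and all of these also belong to the Th17 and gamma-delta T17 list above. *Cd163l1* and *Blk*, already counted there, were higher without overlap, while *Sox13*, which is also expressed by other cells, overlapped. The summed level of these 3 was 5.74 and 8.37 FPKM in Cont-IMQ skin and 8.55 and 8.03 FPKM in 7KC-IMQ skin. Of the 7 B cell and lymph node markers, *Ms4a1* and *Cr2* were listed at 0 in all 4 libraries, and 5 were tested. *Ccl21a*, a chemokine gene of lymphatic vessels and lymph nodes, was lower without overlap, with 71.4 and 60.8 FPKM in Cont-IMQ skin and 48.5 and 52.7 FPKM in 7KC-IMQ skin (log2 fold change -0.37, limma, adjusted p = 0.356). *Cd79a* was higher without overlap, on estimated reads of 0, 1, 2 and 6. This gene averaged under 0.1 FPKM in the Cont-IMQ group and passed the filter through the 7KC-IMQ group alone. Of the 6 macrophage markers, 2 were lower without overlap (median log2 fold change -0.16, summed level 204 and 231 FPKM against 193 and 206 FPKM), and of the 7 dendritic and Langerhans cell markers, 1 was higher and 1 was lower. Of the 4 skeletal muscle markers, *Myh4* (125 and 62.9 FPKM against 427 and 329 FPKM) and *Ckm* were higher and *Acta1* was lower (2848 and 3133 FPKM against 2106 and 2583 FPKM) without overlap, and their summed level was 4617 and 4702 FPKM against 4103 and 4722 FPKM. Of the 4 adipocyte markers, *Plin1* and *Lep* were higher, with a summed level over the list of 917 and 1315 FPKM against 1291 and 867 FPKM. All 6 hair follicle markers overlapped between the groups. The counts of all these lists stand against 23.9% higher and 22.9% lower without overlap over all genes tested. The part of these cells in the levels of the T cell genes was not tested.

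**Figure D4:**
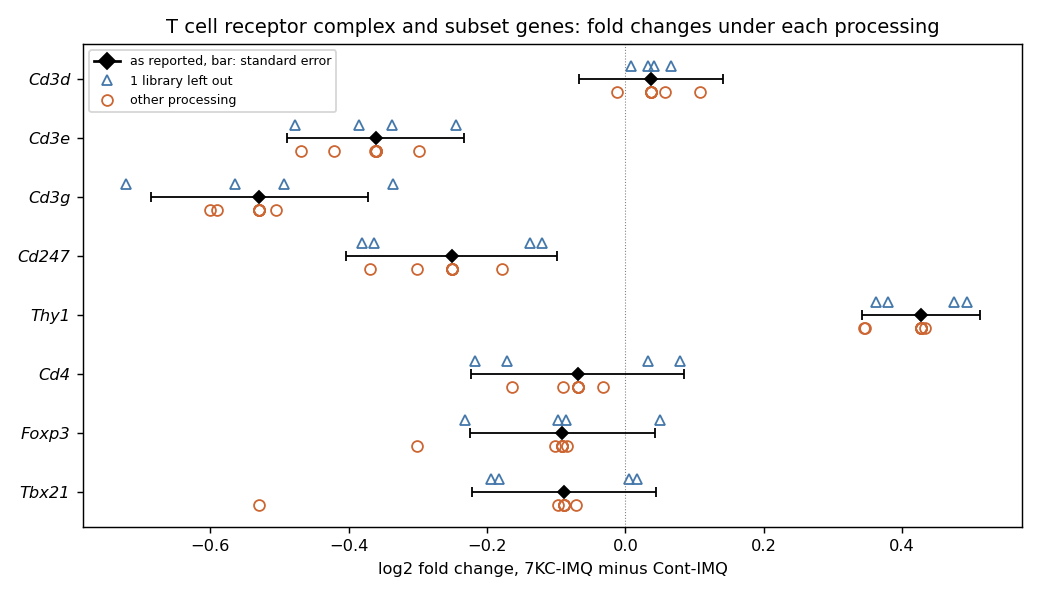
Log2 fold change of the 8 genes tested (7KC-IMQ minus Cont-IMQ), as reported (diamond with standard error), with 1 library left out (triangles) and with other processing (circles, among them a smaller pseudocount, which lengthens the changes of low genes). *Cd3g*, *Cd3e* and *Cd247* stay below 0 and *Thy1* stays above 0 in every case shown, and *Cd3d*, *Cd4*, *Foxp3* and *Tbx21* lie on both sides of 0.

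Across the alternatives, *Cd3e* ranged from -0.48 to -0.24, *Cd3g* from -0.72 to -0.34, *Cd247* from -0.38 to -0.12 and *Thy1* from 0.34 to 0.49 on the log2 scale. The unadjusted limma p ranged from 0.0218 to 0.164 for *Cd3e*, from 0.0116 to 0.0960 for *Cd3g* and from 0.00496 to 0.0426 for *Thy1*, so that of these 3 genes only *Thy1* was under 0.05 in each alternative run. The adjusted p was at least 0.346 for *Cd3e*, 0.322 for *Cd3g* and 0.295 for *Thy1*.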

How the data were processed

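RNA sequence analysis was performed by the authors on dorsal skin (TruSeq stranded mRNA libraries). Single-end reads of 75 bases were mapped to mm10 with TopHat, Bowtie2 and SAMtools, and expression was calculated using Cufflinks. The submitters' processing notes name TopHat2 2.1.1, Bowtie2 2.2.8, SAMtools 0.1.18 and Cuffdiff 2.2.1, and the paper's versions are not identical to these. The authors deposited FPKM values per gene symbol, one file per library, without counts. How multiply mapping reads were treated is not given in the sources used here. An exact 0 in such a file can be a failed estimate.

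From these values, log2(FPKM + 1) was compared between the groups using limma 3.58.1 (lmFit and eBayes with a variance trend) in R 4.3.3, two-sided, with Benjamini-Hochberg adjustment at 0.05 over the 15896 genes averaging 0.1 FPKM or more. On this scale the changes of low genes come out too small. The fit was tested on simulated data. The changes set there were larger than those of *Cd3e*, *Cd3g* and *Thy1* and lay in genes above the level of *Cd3e*. Small changes and changes in low genes were therefore not checked. Ratios within a library were compared with exact two-sided permutation tests. Reads were estimated from the FPKM steps with a length offset of 199 bases, and for *Cd247*, *Cd8a*, *Foxp3*, *Cd27* and *Ncr1* from the longest transcript (approximate). Coordinates came from GENCODE M21. The 9 genes and all lists were chosen with earlier results of these data known. Of each list, the text names from the 4 genes with the highest mean FPKM and those with an unadjusted p under 0.05. *Cd8b1*, *Ncr1*, *Pdgfra*, *Ms4a1*, *Cr2*, *Cd79a* and the genes near or overlapping the 9 genes were named after their values were seen. No value column was left unmapped, and some list genes are not reported here.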

Additional observations from a re-analysis of the deposited data

How the results depend on the processing

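Alternatives were a 0.1 pseudocount, an average of 1 FPKM or more, an unfiltered table, scaling by median ratios, to equal sums or by quantiles, a fit lacking the variance trend, a replicate block, *Cd3e* or *Cd3g* alone as denominator, an average of 0.1 FPKM or more in both groups (added after the data were seen), and leaving out single libraries, where the lone library of a group is assumed to vary like the other group. With 2 libraries per group and 0 to 36 estimated reads for *Cd3d*, *Cd4*, *Cd8a*, *Foxp3* and *Tbx21*, counting limits what these genes can show. Genes past the adjusted threshold numbered 1, 2 with a pseudocount of 0.1, and 1 to 9 with 1 library left out (9 without Cont-IMQ replicate 1). Of the T cell receptor complex and subset genes, 2 were lower at an unadjusted p under 0.05, 1 with no filter, 1 with quantile normalization, and 0 to 1 with 1 library left out (0 without Cont-IMQ replicate 1 or 7KC-IMQ replicate 2). Those lower without overlap numbered 3, 2 with quantile normalization, and 3 to 6 with 1 library left out (6 without Cont-IMQ replicate 2). Those higher without overlap numbered 2, 1 with the same sum, and 2 to 3 with 1 library left out. Leaving out a library can only keep or raise the counts without overlap, since fewer values are compared. The share over all genes was not counted for those runs, so the rise says nothing about these genes. Their median log2 fold change was -0.09, but -0.34 with a pseudocount of 0.1, -0.25 with an average of 1 FPKM or more, and -0.22 to 0.024 with 1 library left out (0.024 without Cont-IMQ replicate 1). Of the other T cell list genes, 3 were lower at an unadjusted p under 0.05, 5 with the same sum, 5 with the replicate block, and 1 to 9 with 1 library left out (9 without Cont-IMQ replicate 2), and 12 were higher, 6 with an average of 1 FPKM or more, and 5 to 12 with 1 library left out. The direction turned for *Cd3d* with the same sum (-0.012), for *Cd4* without Cont-IMQ replicate 1 or 7KC-IMQ replicate 2 (range -0.22 to 0.079 with 1 library left out), for *Foxp3* without Cont-IMQ replicate 1 (range -0.23 to 0.050), and for *Tbx21* without Cont-IMQ replicate 1 or 7KC-IMQ replicate 1 (range -0.19 to 0.016). The 7KC-IMQ over Cont-IMQ ratio of *Foxp3* relative to CD3 ranged from 0.636 to 1.83 with 1 library left out, that of *Thy1* from 1.65 to 2.18, that of *Cd8a* from 3.50 to 6.37, that of *Cd4* from 0.946 to 1.62 and that of *Cd247* from 0.978 to 1.17. Scaling to the same sum moved the median of all genes from -0.01 to -0.07 and the unadjusted calls from 1192 higher and 869 lower to 638 higher and 1229 lower. No pairing by replicate number was seen over all genes (deviation correlation 0.0651), although with 2 libraries per group this single value cannot settle it. With the replicate block, 2 of the T cell receptor complex and subset genes were lower and 1 was higher at an unadjusted p under 0.05, as without it. The causes of these shifts were not tested.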
